A study of Mus musculus with 14 samples.

Results

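Aldosterone-responsive sodium absorption in the colon was followed here through 9 genes, chosen by name from the 37680 genes of the count table. They are Scnn1a, Scnn1b and Scnn1g, which encode the α, β and γ subunits of the epithelial sodium channel ENaC, Nr3c2 and Nr3c1, which encode the mineralocorticoid and the glucocorticoid receptor, Hsd11b2, whose enzyme inactivates glucocorticoids, Sgk1, which encodes a steroid-induced kinase, Atp1b1, the β subunit of the Na,K-ATPase, and Atp12a, the catalytic subunit of the colonic H,K-ATPase. All 9 had a row in the table and were protein-coding in the annotation. A minimum of 10 counts in 3 or more libraries was reached by all 9 among the water libraries, and by 8 among the DSS libraries, where Scnn1g fell short.

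The distal colon takes up the last of the sodium in the stool. Sodium enters the surface colonocyte through ENaC at the apical membrane and leaves it through the Na,K-ATPase at the basolateral one, while the apical H,K-ATPase exchanges protons for potassium. Aldosterone binds the mineralocorticoid receptor, which switches on ENaC subunits and Sgk1, and Sgk1 phosphorylates Nedd4l, a ubiquitin ligase that otherwise removes ENaC from the membrane. Glucocorticoids bind the same receptor, and Hsd11b2 keeps them away from it.

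The RNA came from colon epithelium of adult mice, released with EDTA from pieces of the opened colon, and the crypt epithelium was then isolated by filtering. The methods name no part of the colon for this step, so the proximal and distal shares of each library are not known. The libraries fell into 4 groups, with 4 from WT mice on water, 4 labelled Smad4 KO on water, 3 from WT and 3 from Smad4 KO mice given 2.5% DSS (dextran sulphate sodium, which injures the colonic mucosa) in drinking water for 3 d. The study's own figure captions count 4 replicates for WT on water but 3 for Smad4 KO on water. They do not name the library left out. In the KO mice, floxed Smad4, the common partner of the receptor-activated Smads in TGF-β and BMP signaling, is deleted by Villin-CreERT2 after tamoxifen, in the intestinal epithelium only. The methods give Villin-CreERT2 to the floxed mutants and to controls, and do not say more of the alleles or the tamoxifen of the WT mice in these groups. The labels number the replicates and do not name the mice, so the p-values measure the spread between these libraries.

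Total counts ran from 12882827 to 26087231 per library. Smad4 had 118.5 to 159.3 CPM (counts scaled to library size with the TMM factors of edgeR) in WT on water and 35.07 to 46.77 in 3 of the Smad4 KO libraries on water, but 158.1 in the library labelled Smad4 KO water replicate 1, which goes against its label. After DSS it had 170.2 to 182.3 CPM in WT and 40.37 to 43.88 in Smad4 KO (log2 fold change -2.05, standard error (SE) 0.0882, edgeR adjusted p = 1.6e-05). Fold changes between the genotypes on water, and for DSS in Smad4 KO, are given with and without this library for the 9 genes where tested. The same holds for the pathway genes named on water, and for the difference of the DSS responses of Nr3c1, Sgk1 and Atp12a. Group means, list medians and other fits include it unless stated. Mitochondrially encoded genes held 30.6% and 32.8% of the counts in WT water replicates 3 and 4, 21.4% in Smad4 KO water replicate 4 and 4.05% to 8.23% in the other libraries. Epithelial markers summed to 11220 to 18210 CPM, whereas squamous markers stayed at or below 3.74 CPM, with Krt5, Krt4 and Trp63 at no more than 3 counts. Lymphoid markers summed to 5.05 to 18.2 CPM, and the 5 myeloid markers, all detected, to 4.39 to 9.77 in WT water, 10.25 to 14.4 in the libraries labelled Smad4 KO water, 11.12 to 11.2 in WT DSS and 9.49 to 10.88 in Smad4 KO DSS.

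The 9 genes spanned a wide range of transcript levels. Per kilobase of exon, Atp1b1 was the highest, with 697.0 ± 85.1 CPM per kb (SD, n = 14), followed by Hsd11b2 (150.6 ± 38.9), Atp12a (89.02 ± 33.4), Scnn1a (28.44 ± 6.55), Nr3c2 (14.09 ± 3.04), Nr3c1 (9.48 ± 2.06), Sgk1 (6.999 ± 3.19), Scnn1b (3.19 ± 0.821) and Scnn1g (0.194 ± 0.167). Within a library, Hsd11b2 was above Atp12a in 13 of 14 libraries, Nr3c2 above Nr3c1 in 13 of 14 and Nr3c1 above Sgk1 in 10 of 14. These 3 pairs of neighbors thus changed places in at least 1 library, and the other neighbors in the order kept theirs in all 14.

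**Figure D1:**
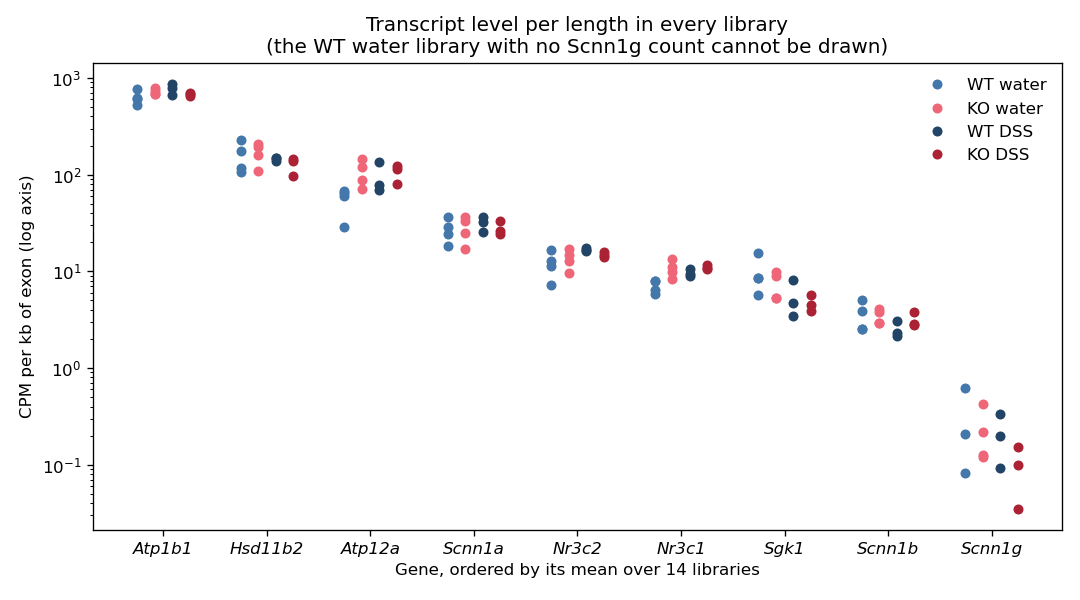
Transcript levels of the 9 genes, in CPM per kb of exon on a log axis, with 1 point per library colored by group and the genes ordered by their mean over 14 libraries. Atp1b1 lies highest at a mean of 697.0 and Scnn1g lowest at 0.194, and the groups lie over each other for most genes.

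No gene of the 9 passed the adjusted threshold of 0.05 in any comparison with edgeR. For Smad4 KO against WT on water, 0 of 9 were called, where 0.00686% of 14568 genes were called (1 gene, the ribosomal protein gene Rpl34, named after its values were seen). At an unadjusted p under 0.05, 2 of the 9 passed on water (21.0% of all genes did), and 2 of 9 had groups that did not overlap (10.7% of all genes). DESeq2 called 1 of the 9 on water, Atp12a (5.46% of all genes), and edgeR with all 14 libraries in 1 model also called 1, Nr3c1 (8.44%). DESeq2 gave no adjusted p for Scnn1g on water or for DSS in WT. After DSS, Smad4 KO against WT gave 0 of 8 called (0.801% of 14241 genes), 0 of 8 at an unadjusted p under 0.05 (15.7%), 0 with DESeq2 (3.45%), 0 in the model of 14 libraries (0.0132%) and 1 with groups that did not overlap (22.1%). The genes' median log2 fold change was 0.09 on water and -0.18 after DSS, beside -0.01 and 0.00 over all genes tested.

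DSS against water gave 0 of 9 called in WT (0% of 14407 genes). There, 3 of 9 had an unadjusted p under 0.05 (25.1% of all genes), 0 were called with DESeq2 (12.4%) or in the model of 14 libraries (0%), and 2 had groups that did not overlap (25.2%). In Smad4 KO, 0 of 8 were called (0.00694% of 14409 genes), 1 of 8 had an unadjusted p under 0.05 (6.54%), 0 were called with DESeq2 (0.486%) or in the model of 14 libraries (0.0661%), and 0 had groups that did not overlap (8.99%). The difference of the DSS responses between the genotypes was called for 0 of 9 (0.00661% of 15127 genes), with 0 of 9 at an unadjusted p under 0.05 (7.50%) and 0 with DESeq2 (0.0529%). The gene called in Smad4 KO and the gene called for the difference were again Rpl34. The medians were 0.23 for DSS in WT, -0.05 for DSS in Smad4 KO and -0.35 for the difference of the responses, against -0.02, -0.02 and -0.01 over all genes. The comparisons share groups of libraries, so that these counts are not independent of each other. In this bulk RNA, fewer cells of a type and less RNA per cell cannot be told apart. When the library labelled Smad4 KO water replicate 1 was left out, the log2 fold change between the genotypes on water was -0.06 for Scnn1a, 0.04 for Scnn1b, -0.62 for Scnn1g, 0.13 for Nr3c2, -0.03 for Hsd11b2 and 0.16 for Atp1b1, with edgeR adjusted p-values of 0.73 to 0.96. DSS against water in Smad4 KO then gave 0.10 for Scnn1a, -0.19 for Scnn1b, 0.19 for Nr3c2, 0.00 for Nr3c1, -0.28 for Hsd11b2, -0.05 for Atp1b1 and -0.16 for Atp12a, with edgeR adjusted p-values of 0.87 to 1.0.

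**Figure D2:**
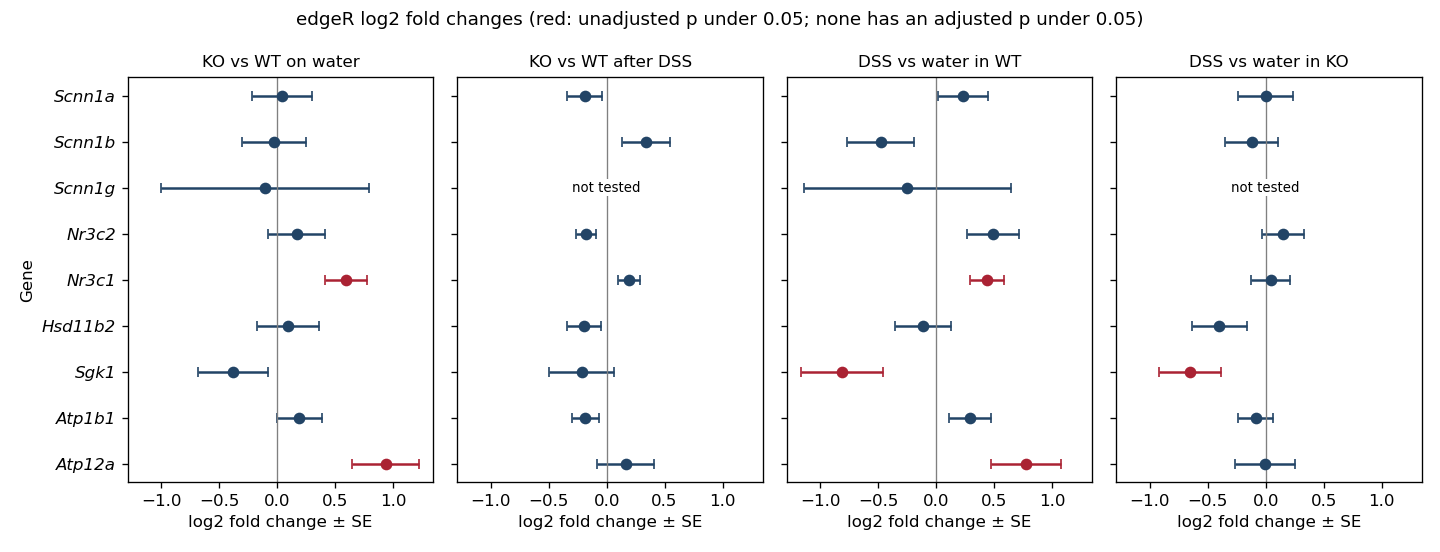
Log2 fold changes (edgeR, bars show the SE) of the 9 genes in the 4 comparisons, with those at an unadjusted p under 0.05 in red. Atp12a (0.94) and Nr3c1 (0.59) stand highest for Smad4 KO against WT on water, Sgk1 lies lowest in both DSS comparisons, and Scnn1g was not tested in those that use the Smad4 KO DSS libraries.

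Among the ENaC subunits, Scnn1a carried most of the transcript. Scnn1a (chromosome 6 of mm9, 125271358 to 125294958, ENSMUSG00000030340) had 100.8, 127.3, 85.99 and 63.52 CPM in WT on water and 117.3, 59.25, 126.2 and 86.82 in the libraries labelled Smad4 KO on water. After DSS it had 90.09, 114.4 and 128.9 CPM in WT and 84.73, 116.2 and 90.43 in Smad4 KO. Every group overlapped every other. Its log2 fold changes between Smad4 KO and WT were 0.04 (SE 0.256) on water and -0.19 (SE 0.154) after DSS, with edgeR adjusted p = 0.94 and 0.59. DSS against water gave 0.23 (SE 0.217) in WT and 0.00 (SE 0.241) in Smad4 KO.

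Scnn1b and Scnn1g lie next to each other on chromosome 7 of mm9, with Scnn1g from 128877993 to 128911989, Scnn1b from 129008591 to 129062029, and no protein-coding gene in the 96601 bases between them. Scnn1b (ENSMUSG00000030873) had 10.07, 6.56, 6.51 and 13.15 CPM in WT on water and 7.61, 7.51, 9.79 and 10.59 in the libraries labelled Smad4 KO. In the DSS libraries it had 7.95, 5.58 and 5.94 CPM in WT and 7.27, 9.85 and 7.36 in Smad4 KO. The groups overlapped in each comparison. The log2 fold change between the genotypes was -0.03 (SE 0.28, edgeR adjusted p = 0.96) on water and 0.34 (SE 0.207, adjusted p = 0.47) after DSS. DSS against water gave -0.48 (SE 0.292) in WT and -0.12 (SE 0.232) in Smad4 KO. Cog7 overlaps Scnn1b on the opposite strand, but 0 of the 2592 exon bases of Scnn1b are exonic in Cog7.

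Scnn1g (ENSMUSG00000000216) was near the limit of detection. It had 50, 14, 3 and 0 counts in WT on water, 29, 6, 16 and 7 in the libraries labelled Smad4 KO on water, 6, 13 and 24 in WT after DSS and 2, 6 and 9 in Smad4 KO after DSS. The library with no count allows up to 0.321 CPM (3 counts), and the highest library reached 1.85 CPM. The log2 fold change between the genotypes on water, -0.11, came with a SE of 0.894 (edgeR adjusted p = 0.96). A change of several-fold was thus not detectable with these low counts and their spread, with a coefficient of variation of 121% in WT on water. The γ subunit was the scarcest of the 9 genes in each of the 14 libraries.

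**Figure D3:**
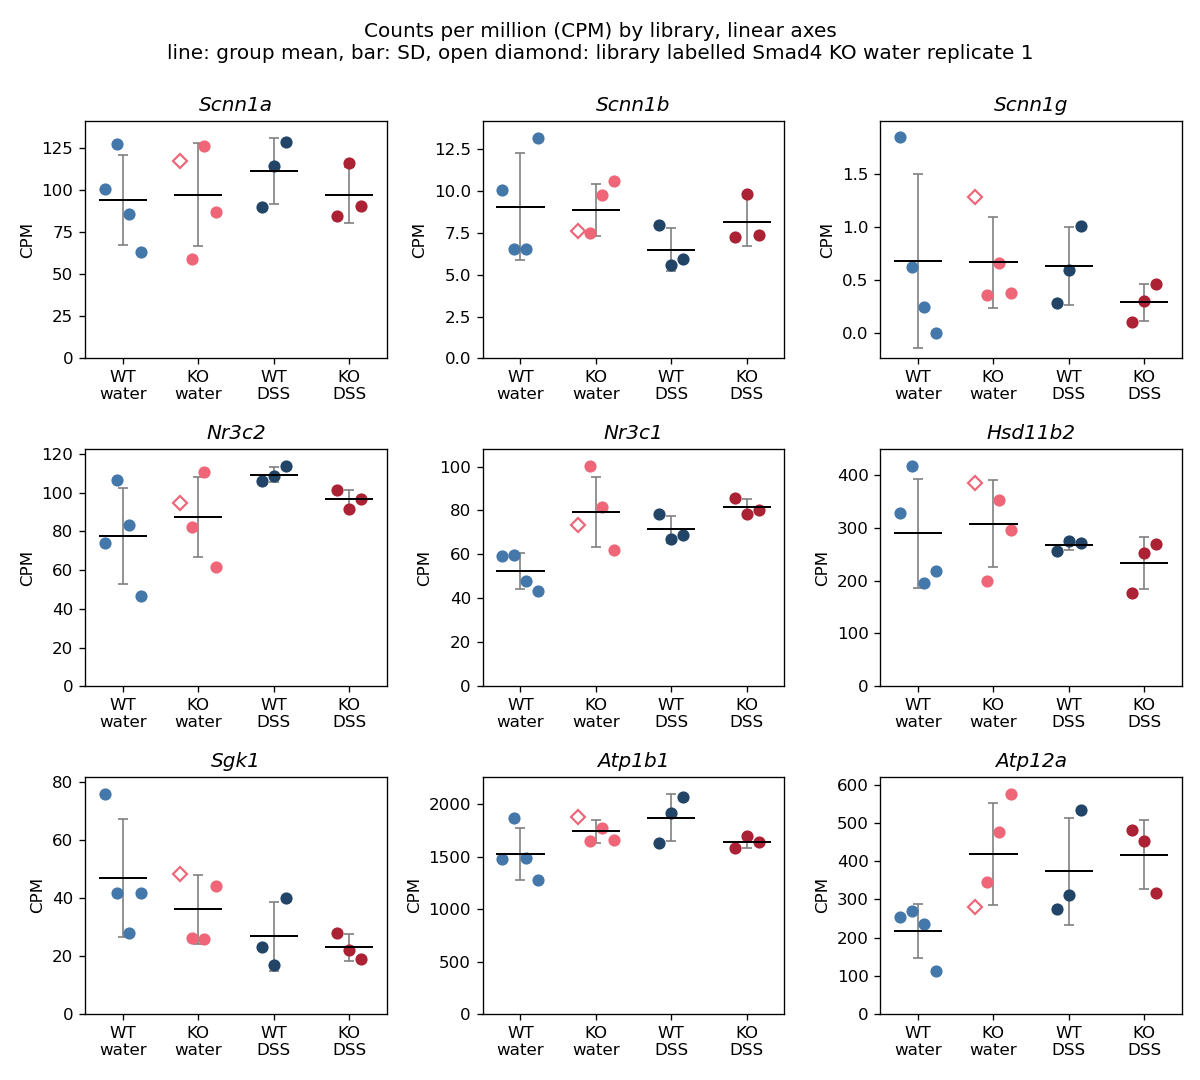
CPM of the 9 genes by library on linear axes, with the group mean as a line, the SD as a bar and the library labelled Smad4 KO water replicate 1 as an open diamond. Nr3c1 and Atp12a are lower in all 4 WT water libraries than in the 4 libraries labelled Smad4 KO water, and for Scnn1a, Hsd11b2, Sgk1 and Atp1b1 the genotypes overlap on water and after DSS.

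The mineralocorticoid receptor gene Nr3c2 (chromosome 8 of mm9, 79423341 to 79768911, ENSMUSG00000031618) had 74.01, 106.5, 83.06 and 46.84 CPM in WT on water and 94.73, 82.49, 110.6 and 61.69 in the libraries labelled Smad4 KO. After DSS it had 106.1, 108.4 and 113.6 CPM in WT and 101.4, 91.53 and 96.47 in Smad4 KO. All WT libraries were above all Smad4 KO libraries after DSS, by a small margin. There the log2 fold change was -0.18 (SE 0.0858, edgeR adjusted p = 0.35), and on water it was 0.17 (SE 0.245, adjusted p = 0.72). DSS against water gave 0.49 (SE 0.222, adjusted p = 0.20) in WT and 0.15 (SE 0.184, adjusted p = 0.91) in Smad4 KO. The noncoding gene Gm10649 overlaps the start of Nr3c2 on the opposite strand and had 2 to 20 counts. The lowest Nr3c2 levels, 46.84 and 61.69 CPM, were in WT water replicate 4 and Smad4 KO water replicate 4, where mitochondrial genes held 32.8% and 21.4% of the counts, and the part of this share in the result was not tested. Without WT water replicates 3 and 4 the DSS response in WT was 0.28 (SE 0.153, edgeR adjusted p = 0.34).

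The glucocorticoid receptor gene Nr3c1 (chromosome 18 of mm9, 39570199 to 39650955, ENSMUSG00000024431) had 59.29, 59.65, 47.72 and 43.20 CPM in WT on water. The libraries labelled Smad4 KO on water had 73.25, 100.1, 81.37 and 62.12 CPM. All 4 were above all 4 WT libraries, with means of 79.22 ± 16.0 and 52.46 ± 8.30 CPM (SD, n = 4). The library labelled Smad4 KO water replicate 1, whose Smad4 was in the WT range, stood at 73.25 CPM, above Smad4 KO water replicate 4 at 62.12. The log2 fold change between the labelled genotypes was 0.59 (SE 0.184), with an edgeR adjusted p of 0.15 and a DESeq2 adjusted p of 0.054. With all 14 libraries in 1 edgeR model the adjusted p was 0.034, and over the alternatives it ranged from 0.020 to 0.59. When the library labelled Smad4 KO water replicate 1 was left out, the log2 fold change was 0.63 (SE 0.207, edgeR adjusted p = 0.19), and without WT water replicates 3 and 4 it was 0.43 (SE 0.22, edgeR adjusted p = 0.59). Leaving out Smad4 KO water replicate 4 gave 0.69 and an edgeR adjusted p of 0.034. The first letters of the library names, whose meaning the sources used here do not give, differ between the groups, and among libraries of the same letter WT had 47.72 CPM against 73.25 and 100.1 (Z) and 43.20 against 81.37 and 62.12 (M). These WT values are those of WT water replicates 3 and 4, and no other WT water library has these letters. The sum of the myeloid markers was also higher in every library labelled Smad4 KO water than in every WT water library, and higher in every WT DSS library than in WT water, as given above, and its part in the values of Nr3c1 and Atp12a was not tested.

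After DSS, Nr3c1 stood at 78.46, 66.94 and 69.05 CPM in WT and 85.88, 78.29 and 80.03 in Smad4 KO. All 3 WT DSS libraries were above all 4 WT water libraries (log2 fold change 0.44, SE 0.145, edgeR adjusted p = 0.12, DESeq2 adjusted p = 0.051), and among libraries of the letter D they were at 78.46 and 66.94 against 59.29 and 59.65 CPM. Without WT water replicates 3 and 4 this difference was 0.27 (SE 0.11, edgeR adjusted p = 0.22). The genotypes overlapped after DSS (log2 fold change 0.19, SE 0.0949, edgeR adjusted p = 0.36), and DSS against water in Smad4 KO gave 0.04 (SE 0.169). The difference between the DSS responses, -0.40 (SE 0.228), had an edgeR adjusted p of 0.67. It was -0.44 (SE 0.241, edgeR adjusted p = 0.63) when the library labelled Smad4 KO water replicate 1 was left out.

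Hsd11b2 (chromosome 8 of mm9, 108042646 to 108047884, ENSMUSG00000031891), which protects the mineralocorticoid receptor from glucocorticoids, had 327.6, 416.2, 195.1 and 217.6 CPM in WT on water and 385.5, 199.0, 352.2 and 295.0 in the libraries labelled Smad4 KO. After DSS it had 255.8, 275.4 and 271.4 CPM in WT and 177.1, 252.7 and 269.1 in Smad4 KO. The WT DSS libraries lay close together, with a coefficient of variation of 3.88% beside 35.5% in WT on water. No comparison separated the groups, with log2 fold changes of 0.09 (SE 0.268) and -0.20 (SE 0.148) between the genotypes on water and after DSS, and of -0.12 (SE 0.239) and -0.40 (SE 0.238) for DSS in WT and Smad4 KO. The edgeR adjusted p-values of these were 0.87, 0.56, 0.80 and 0.81.

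Sgk1 (chromosome 10 of mm9, 21601990 to 21719709, ENSMUSG00000019970) encodes the kinase through which aldosterone acts on ENaC turnover. Of the member promoters in the RefSeq table (GRCm38.p6, from 250 bases before to 50 after the start), which holds 10 windows for 5 of the genes, a single Sgk1 window carried the palindrome bound by steroid receptors of this class, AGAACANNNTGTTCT. It occurs in 3 of 32851 windows (0.00913%), while either of its arms, AGAACA or TGTTCT, which are each other's reverse complement, occurs in 19.0% of the windows. The window is 1 of 6 for Sgk1, the table has no entry for Scnn1a, Nr3c1, Hsd11b2 and Atp12a, and the windows of Scnn1b, Scnn1g, Nr3c2 and Atp1b1 hold 0 arms. The 250 bases before that start, at chr10:21993640-21993889 of GRCm38.p6 on the plus strand, are shown to place the palindrome (capitals), which ends 174 bases before the start.
Sgk1 upstream: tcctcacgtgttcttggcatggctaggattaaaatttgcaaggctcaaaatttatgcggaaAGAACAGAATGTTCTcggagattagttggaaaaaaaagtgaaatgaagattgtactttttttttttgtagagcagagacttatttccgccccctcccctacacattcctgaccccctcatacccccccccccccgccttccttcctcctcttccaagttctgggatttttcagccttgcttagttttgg
The match is one of letters only, and the gene counts do not tell the starts of Sgk1 apart.

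Sgk1 had 75.72, 41.60, 28.01 and 41.81 CPM in WT on water and 48.31, 26.17, 25.71 and 44.00 in the libraries labelled Smad4 KO. In the DSS libraries it had 23.07, 17.04 and 40.08 CPM in WT and 27.88, 22.01 and 18.98 in Smad4 KO. Levels were lower after DSS in both genotypes on average, but the groups overlapped in each. For DSS it gave a log2 fold change of -0.81 (SE 0.355, edgeR adjusted p = 0.19, DESeq2 adjusted p = 0.10) in WT and -0.65 (SE 0.268, edgeR adjusted p = 0.73) in Smad4 KO, and these responses differed by 0.16 (SE 0.475, edgeR adjusted p = 0.94). Without WT water replicate 1, the highest library, the response in WT was -0.48 (SE 0.303, edgeR adjusted p = 0.35), and with any 1 library left out it ranged from that value to -1.23 (without WT DSS replicate 3, edgeR adjusted p = 0.30). Without WT water replicates 3 and 4 it was -1.13 (SE 0.355, edgeR adjusted p = 0.14). When the library labelled Smad4 KO water replicate 1 was left out, the response in Smad4 KO was -0.48 (SE 0.267, edgeR adjusted p = 0.78). The responses then differed by 0.33 (SE 0.486, edgeR adjusted p = 0.85). No Smad4 KO library on water shares the first letter of its name with a Smad4 KO DSS library. In Smad4 KO the letter and DSS thus cannot be told apart. In WT the libraries of the letter D had 75.72 and 41.60 CPM on water and 23.07 and 17.04 after DSS. The letter Z went the other way in WT, with 28.01 CPM on water and 40.08 after DSS. Between the genotypes the log2 fold change was -0.38 (SE 0.303, edgeR adjusted p = 0.49) on water and -0.22 (SE 0.278, adjusted p = 0.74) after DSS. On water Sgk1 had a log2 fold change of -0.55 (SE 0.326, edgeR adjusted p = 0.37) when the library labelled Smad4 KO water replicate 1 was left out and of -0.05 (SE 0.271, edgeR adjusted p = 0.94) without WT water replicate 1.

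Of the pump subunits, Atp1b1 (chromosome 1 of mm9, 166367398 to 166388486, ENSMUSG00000026576) was the steadiest of the 9 genes, with a coefficient of variation of 12.2% over 14 libraries. It had 1479, 1867, 1488 and 1275 CPM in WT on water, 1884, 1651, 1780 and 1662 in the libraries labelled Smad4 KO on water, 1630, 1919 and 2072 in WT after DSS and 1589, 1698 and 1643 in Smad4 KO after DSS. All groups overlapped. Its log2 fold changes were 0.19 (SE 0.192) on water and -0.19 (SE 0.116) after DSS between the genotypes, and 0.29 (SE 0.179) in WT and -0.08 (SE 0.151) in Smad4 KO for DSS, with edgeR adjusted p-values of 0.59, 0.48, 0.33 and 0.95.

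Atp12a (chromosome 14 of mm9, 56983905 to 57007388, ENSMUSG00000022229) showed the widest range after Scnn1g, with a 5.05-fold span over the libraries. It had 255.3, 268.5, 235.8 and 114.0 CPM in WT on water and 280.2, 344.5, 475.7 and 575.5 in the libraries labelled Smad4 KO on water. The 4 libraries labelled Smad4 KO were all above the 4 WT libraries, with the one labelled replicate 1 the nearest to WT. The group means were 419.0 ± 132 and 218.4 ± 70.9 CPM (SD, n = 4), and the log2 fold change was 0.94 (SE 0.289, 1.92-fold), with an edgeR adjusted p of 0.15 and a DESeq2 adjusted p of 0.030. With all 14 libraries in 1 edgeR model the adjusted p was 0.053, and over the alternatives it ranged from 0.030 to 0.59. When the library labelled Smad4 KO water replicate 1 was left out, the mean was 465.2 ± 116 CPM (SD, n = 3) and the log2 fold change 1.09 (SE 0.292, edgeR adjusted p = 0.16). In a model of the other 13 libraries it was also 1.09, with an edgeR adjusted p of 0.040. Among libraries of the same first letter, WT had 235.8 CPM against 280.2 and 344.5 (Z), and 114.0 against 475.7 and 575.5 (M). These WT values are those of WT water replicates 3 and 4, where mitochondrial genes held 30.6% and 32.8% of the counts. The 280.2 CPM is from the library labelled Smad4 KO water replicate 1. Without WT water replicates 3 and 4 the log2 fold change on water was 0.69 (SE 0.292, edgeR adjusted p = 0.59). Without replicate 4 alone it was 0.73 (SE 0.245, edgeR adjusted p = 0.36).

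After DSS, Atp12a had 275.4, 312.2 and 534.5 CPM in WT and 483.0, 453.5 and 316.0 in Smad4 KO, and the genotypes overlapped (log2 fold change 0.16, SE 0.246, edgeR adjusted p = 0.79). All 3 WT DSS libraries were above the 4 WT water libraries (log2 fold change 0.77, SE 0.304, edgeR adjusted p = 0.16, DESeq2 adjusted p = 0.071). Within the letter D the values were 275.4 and 312.2 against 255.3 and 268.5 CPM, and without WT water replicates 3 and 4 the log2 fold change was 0.52 (SE 0.262, edgeR adjusted p = 0.30). Without WT DSS replicate 3, the highest of the 3, it was 0.43 (SE 0.296, edgeR adjusted p = 0.50). DSS against water in Smad4 KO gave -0.01 (SE 0.259, edgeR adjusted p = 1.0). The difference of the DSS responses was -0.78 (SE 0.436), with an edgeR adjusted p of 0.67. With the library labelled Smad4 KO water replicate 1 left out it was -0.93 (SE 0.432, edgeR unadjusted p = 0.048, adjusted p = 0.58).

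Ratios within a library do not depend on its depth or scaling. Scnn1a exceeded Scnn1b in every library, per kilobase of exon, by a median of 8.93 times, with a range from 3.58 to 16.1. Scnn1b exceeded Scnn1g by a median of 18.6 times in the 13 libraries with a Scnn1g count. The ratio of Nr3c2 to Nr3c1 was 1.55 to 1.89 in WT after DSS and 1.34 to 1.38 in Smad4 KO after DSS, so these groups did not overlap, while on water the ranges, 1.24 to 2.05 in WT and 0.945 to 1.56 in the libraries labelled Smad4 KO, did. Nr3c2 alone also separated the genotypes after DSS, as 22.1% of all genes tested did. The ratio of Atp1b1 to Atp12a ran from 9.45 to 18.2 in WT on water and from 4.71 to 11 in the libraries labelled Smad4 KO. No test was run on these ratios.

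**Figure D4:**
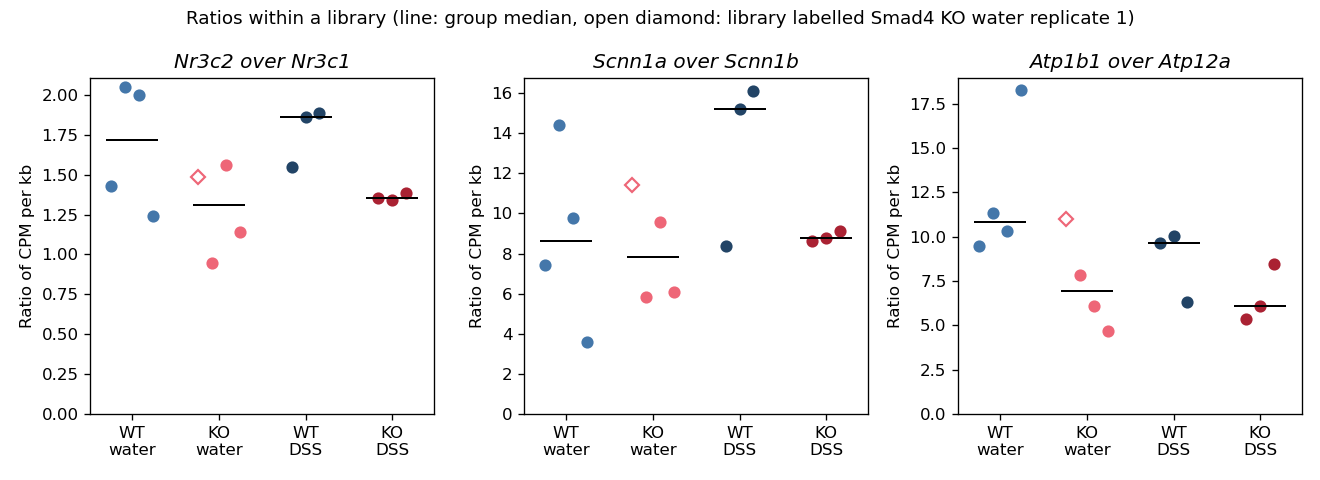
Ratios of CPM per kb within each library for the receptors, the α and β ENaC subunits and the pumps, with the group median as a line and the library labelled Smad4 KO water replicate 1 as an open diamond. The receptor ratio after DSS is 1.55 to 1.89 in WT and 1.34 to 1.38 in Smad4 KO, and the pump ratio on water is highest in WT at 18.2.

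Other genes of the pathway were read from 7 lists with 72 genes in all, of which 59 were tested for Smad4 KO against WT on water and after DSS. A single gene was called with edgeR over the 4 comparisons and their difference, Slc12a2, which encodes the basolateral Na-K-2Cl cotransporter NKCC1 and was higher in Smad4 KO after DSS. With DESeq2, 4 of the 59 were higher and 2 lower on water (5.46% of all genes were called), 2 higher and 4 lower after DSS (3.45%), 4 of 58 higher and 3 lower for DSS in WT (12.4%), and 1 of 59 higher and 0 lower for DSS in Smad4 KO (0.486%). The median log2 fold change of the tested genes was 0.03 on water and -0.03 after DSS between the genotypes, near those of all genes. The genes called by DESeq2 alone that are named here were chosen after their values were seen.

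Slc12a2 loads chloride, sodium and potassium into the cell from the blood side. It had 410.1, 335.1, 472.8 and 345.8 CPM in WT on water and 648.4, 1067, 906.6 and 630.5 in the libraries labelled Smad4 KO on water. After DSS it had 408.1, 309.2 and 431.8 CPM in WT and 710.6, 621.0 and 608.5 in Smad4 KO. Every library labelled Smad4 KO was above every WT library of the same treatment. On water the library labelled Smad4 KO water replicate 1, whose Smad4 was in the WT range, was at 648.4 CPM, above Smad4 KO water replicate 4 at 630.5. After DSS the log2 fold change was 0.76 (SE 0.139, edgeR adjusted p = 0.046, DESeq2 adjusted p = 9.8e-06), and on water it was 1.06 (SE 0.219, edgeR adjusted p = 0.15, DESeq2 adjusted p = 6.3e-04). After DSS the edgeR adjusted p of Slc12a2 was 0.0035 without a filter on low counts, 0.069 with the replicate number as a block (log2 fold change 0.77), 0.59 with all 14 libraries in 1 model, 0.51 with the name letter as a block, 0.64 with the Hox covariate, 0.45 with 13 libraries and 0.074 to 0.14 with 1 library left out, whichever library it was. On water edgeR called it with all 14 libraries (adjusted p = 0.021), with the replicate block (0.045, log2 fold change 1.03), with the name letter (0.022), without a filter (0.049), with 13 libraries (0.0099) and without Smad4 KO water replicate 4 (0.025), and the adjusted p was 0.59 without WT water replicates 3 and 4, 0.081 with the Hox covariate and 0.12 to 0.38 with any other 1 library left out. The log2 fold change on water was 1.15 (SE 0.233, edgeR adjusted p = 0.12) when the library labelled Smad4 KO water replicate 1 was left out.

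The 13 genes that cut, protect or remove ENaC were all tested and 0 were called with edgeR in any comparison. Their median log2 fold change was 0.00 on water and -0.06 after DSS between the genotypes. Usp2, which encodes a deubiquitinase that keeps ENaC at the membrane, had 22.72 ± 2.86 CPM in WT and 12.69 ± 2.92 in the libraries labelled Smad4 KO on water (SD, n = 4), and 31.08 ± 7.61 and 19.40 ± 1.51 after DSS (SD, n = 3). Its log2 fold changes were -0.84 (SE 0.209) and -0.68 (SE 0.175), with edgeR adjusted p = 0.15 and 0.12 and DESeq2 adjusted p = 0.012 and 0.013. Nedd4l, the ligase that Sgk1 inhibits, had 97.09 ± 8.45 and 77.25 ± 3.05 CPM on water (SD, n = 4), and 86.58 ± 4.63 and 66.91 ± 7.66 CPM after DSS (SD, n = 3), in WT and Smad4 KO. Its log2 fold changes of -0.33 and -0.37 had edgeR adjusted p-values of 0.20 and 0.15. The related ligase Nedd4 had a log2 fold change of 0.66 on water (SE 0.206, edgeR adjusted p = 0.15, DESeq2 adjusted p = 0.039). When the library labelled Smad4 KO water replicate 1 was left out, the log2 fold changes on water were -0.98 for Usp2, -0.34 for Nedd4l and 0.68 for Nedd4, with edgeR adjusted p = 0.13, 0.27 and 0.20.

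Of 11 genes known to respond to corticosteroids, 0 were called with edgeR. The median log2 fold change was -0.01 on water and -0.23 after DSS between the genotypes, and -0.11 and -0.34 for DSS in WT and Smad4 KO. Tsc22d3, which encodes the steroid-induced protein GILZ, had 37.79 ± 3.32, 31.65 ± 8.45, 29.56 ± 2.77 and 29.73 ± 0.934 CPM in WT water, Smad4 KO water, WT DSS and Smad4 KO DSS (SD, n = 4, 4, 3 and 3). Fkbp5, another textbook target, had 66.58 ± 20.2, 69.83 ± 13, 66.98 ± 2.37 and 75.46 ± 9.93 CPM in the same order. Per1, a clock gene that steroids also induce, had 16.84 ± 2.03 CPM (SD, n = 4) in the libraries labelled Smad4 KO on water and 42.79 ± 7.64 (SD, n = 3) in Smad4 KO after DSS. Its log2 fold change there was 1.35 (SE 0.177, edgeR adjusted p = 0.10, DESeq2 adjusted p = 9.4e-08), and in WT it was 0.39 (SE 0.262). The Per1 response in Smad4 KO was 1.33 with the library labelled Smad4 KO water replicate 1 left out (SE 0.203, edgeR adjusted p = 0.33). The difference of these Per1 responses, 0.96 (SE 0.334), had an edgeR adjusted p of 0.64. Klf9 had a log2 fold change of 0.94 for DSS in WT (SE 0.284, edgeR adjusted p = 0.10, DESeq2 adjusted p = 0.024), which was 0.62 without WT water replicates 3 and 4 (edgeR adjusted p = 0.081), and Dusp1 one of -0.76 between the genotypes after DSS (SE 0.185, edgeR adjusted p = 0.11, DESeq2 adjusted p = 0.013).

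In the list of receptor chaperones and steroid metabolism, 7 of 11 genes were tested and 0 were called by either tool. Hsd11b1, whose enzyme regenerates active glucocorticoid, had at most 7 counts in a library, and Cyp11b1, which makes corticosterone, had 0 counts in all 14. Of the other pump subunits, 7 of 14 were tested (6 for DSS in WT) and 0 were called with edgeR in any comparison. Atp1b3, which encodes another β subunit of the Na,K-ATPase, had 59.90 ± 5.84, 62.79 ± 5.46, 51.42 ± 1.68 and 50.92 ± 2.70 CPM in WT water, Smad4 KO water, WT DSS and Smad4 KO DSS (SD, n = 4, 4, 3 and 3). The gastric H,K-ATPase gene Atp4a stayed at or below 1.42 CPM. Atp4a was the 1 subunit with an unadjusted edgeR p under 0.05, higher in Smad4 KO than in WT after DSS, higher after DSS in Smad4 KO and in the difference of the DSS responses. DESeq2 called it in the first of these (log2 fold change 2.07 ± 0.66 SE, adjusted p = 0.0497; edgeR adjusted p = 0.0972) and called 0 subunits in the other comparisons.

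In the SGK kinase list all 10 genes were tested and 0 were called with edgeR. Rictor, a subunit of the complex that activates Sgk1, and Pdpk1, which phosphorylates it, had log2 fold changes of 0.78 (SE 0.215) and 0.75 (SE 0.229) on water, both with an edgeR adjusted p of 0.15 and with DESeq2 adjusted p-values of 0.030 and 0.045. They were 0.82 and 0.79 when the library labelled Smad4 KO water replicate 1 was left out, with edgeR adjusted p = 0.17 and 0.19. The list's median was 0.30 on water and 0.07 after DSS. For DSS in WT, DESeq2 called 3 of the 10 higher and 1 lower, where it called 12.4% of all genes tested. They were Rictor (0.61, DESeq2 adjusted p = 0.015), Pdpk1 (0.63, 0.020) and Mtor (0.52, 0.023), and the kinase gene Wnk4 (-0.92, 0.049), with edgeR adjusted p-values of 0.093 to 0.15. Without WT water replicates 3 and 4 these log2 fold changes were 0.44, 0.52, 0.39 and -0.20, with edgeR adjusted p-values of 0.13, 0.072, 0.17 and 0.63. Of 9 other genes of sodium entry and its scaffolds, Slc12a2 was the one called, and the sodium-proton exchanger gene Slc9a2 (log2 fold change -0.49 after DSS, SE 0.141, edgeR adjusted p = 0.16, DESeq2 adjusted p = 0.034) and the scaffold gene Slc9a3r1 (-0.33, SE 0.0926, edgeR adjusted p = 0.15, DESeq2 adjusted p = 0.038) were lower with DESeq2. Slc9a3r1 was also lower on water (-0.55, SE 0.181, edgeR adjusted p = 0.16, DESeq2 adjusted p = 0.049). That value was -0.63 when the library labelled Smad4 KO water replicate 1 was left out (edgeR adjusted p = 0.19). Slc9a3, the main apical exchanger, spread from 1.93 to 41.77 CPM within WT on water alone. Of 7 potassium channel genes of the colonocyte, 5 were tested and 0 were called with edgeR. For DSS in WT, where DESeq2 called 12.4% of all genes, it called Kcne3 (-0.48) and Kcnn4 (-0.53), which were at -0.33 and -0.29 without WT water replicates 3 and 4.

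ENaC is a protein of surface colonocytes, and of the distal more than the proximal colon. The RNA was from isolated crypt epithelium, and the part of this step in the levels was not tested. The 6 markers of surface colonocytes summed to 2935 to 3736 CPM in WT on water, 2162 to 3048 in the libraries labelled Smad4 KO on water, 2799 to 2996 in WT after DSS and 1902 to 2149 in Smad4 KO after DSS. The genotypes did not overlap in this sum after DSS, nor in that of the stem cell markers, with 109.0 to 146.7 CPM in WT and 179.7 to 190.2 in Smad4 KO. Fibroblast markers were low throughout but also stood apart after DSS, with 0.276 to 1.90 CPM in WT and 7.21 to 12.97 in Smad4 KO and Lum at no more than 3 counts. After DSS the sums of 4 other lists did not overlap either, and were higher in WT: goblet cells (14190 to 15700 CPM in WT and 11650 to 12170 in Smad4 KO), the epithelium as a whole (16270 to 16860 and 15100 to 16080), tuft cells (22.34 to 26.82 and 19.65 to 20.4) and the myeloid list. The part of these markers in the values of the 9 genes and of Slc12a2 was not tested. The 6 posterior Hox genes, which mark the distal colon, summed to 363.6 to 625.1, 211.1 to 561.9, 334.0 to 470.3 and 346.1 to 349.4 CPM in WT water, Smad4 KO water, WT DSS and Smad4 KO DSS. The highest values were in WT water replicate 2 and in the library labelled Smad4 KO water replicate 1, and the lowest in Smad4 KO water replicate 2.

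Over the 14 libraries, Scnn1a and Hsd11b2 had the highest Pearson's r with the posterior Hox sum, on the log2 CPM scale. For Scnn1a, Pearson's r was 0.656 (permutation p = 0.011, Benjamini-Hochberg adjusted 0.097 over 9 relations) and Spearman's rho 0.437 (permutation p = 0.12, adjusted 0.29). For Hsd11b2, r was 0.576 (permutation p = 0.029, adjusted 0.13) and rho 0.367 (permutation p = 0.20, adjusted 0.29). Neither passed the correction, and without the 2 libraries farthest from the median of the Hox sum r was 0.335 and 0.281. Leaving these out also narrows the range of the sum, so this cannot tell whether the relation rests on them. With the group means removed, r was 0.777 and 0.692. Other measures gave another order: rho was largest in size for Nr3c1 (-0.600, adjusted 0.24) and Scnn1b (-0.481), r without the 2 farthest libraries for Scnn1g (0.53) and Scnn1b (-0.502), and r with the group means removed was 0.724 for Atp1b1. With the Hox sum as a covariate in a model of 14 libraries, the log2 fold change between the genotypes on water was 0.37 (SE 0.195) for Scnn1a and 0.38 (SE 0.213) for Hsd11b2, with edgeR adjusted p = 0.25 and 0.28.

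Among themselves, the genes varied in part together over the 14 libraries, which share groups and depth. Pearson's r of log2 CPM was 0.775 for Nr3c2 with Atp1b1, 0.740 for Scnn1a with Atp1b1 and 0.709 for Scnn1a with Hsd11b2, and it was -0.744 for Scnn1b with Nr3c2. The α and β ENaC subunits had an r of -0.346. Across all genes that reached this minimum in the 14 libraries, those with the highest r were Epas1 (0.905), Slc2a1 (0.886) and Capn2 (0.874) for Scnn1a, Vipr2 (0.896), Cxxc5 (0.859) and Slc4a8 (0.839) for Scnn1b, and Hspb7, Rhoa and Ergic1 (0.802 to 0.807) for the sparse Scnn1g. For the receptors they were Tmem20 (0.966), Ptpn3 (0.958) and Abhd2 (0.957) for Nr3c2, and Smarca5 (0.977), Gspt1 (0.968) and Rbm26 (0.966) for Nr3c1. Hsd11b2 was most like Tmem59 (0.915), Abp1 (0.895) and Wnt8b (0.866), and Sgk1 most like Mypop (0.871), 4933404O12Rik (0.85) and Kifc1 (0.786). For the pumps they were Epas1 (0.908), Igsf3 (0.905) and Ctnna1 (0.892) for Atp1b1, and Mapk1ip1l (0.894), Cd47 (0.890) and Ept1 (0.889) for Atp12a.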

How the data were processed

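Gene-level RNA-seq was read for 14 libraries of mouse colon epithelium. Poly(A) libraries were sequenced as 150-bp paired-end reads, aligned by the authors to mm9 with Hisat2 and counted on genes with featureCounts, and the deposited values are whole-number counts without normalization. The strand setting is not given in the sources used here. Of 37680 genes, 37310 have an entry in GENCODE M1, from which positions and exon lengths were taken. Libraries were grouped by their labels. CPM used TMM factors over 14 libraries.

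Genes that reached 10 counts in 3 or more libraries of a model were tested with the quasi-likelihood test of edgeR 4.0.16 over the 2 groups compared (all 14 for the difference of the responses), with Benjamini-Hochberg adjustment and a threshold of 0.05. The adjusted p-values of the text are from these fits or from DESeq2 1.42.0, over all genes tested. Alternatives were all 14 libraries in 1 model, DESeq2, median ratio factors, normalization without mitochondrial genes, other filters, blocks of replicate number and name letter, the posterior Hox sum as a covariate, and each library left out. Models of 13 libraries and without WT water replicates 3 and 4 were chosen after seeing the data. Permutation tests of correlations were two-sided with 100000 resamples and a pseudocount of 0.5 CPM. No correlation with the mitochondrial share was computed, since 3 libraries lie apart in it. The limit of 3 counts for a library with no count covers counting error only, while the SDs and SEs include the spread between libraries. The tests were tried on simulated data.

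The genes and lists were chosen with earlier results of these data known. The genes named are the 9 in every library, list genes called with edgeR, the 3 genes most like each of the 9, and Smad4, and others are named as chosen later. R 4.3.3 and Python 3.11.15 were used.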

Additional observations from a re-analysis of the deposited data

How the results depend on the processing

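The alternatives other than those that leave out each library in turn gave 439 values of the 9 genes. They include the models of 13 libraries and those without WT water replicates 3 and 4. Of these values, 406 kept direction and side of the threshold, 5 were newly called and 28 changed sign. Of 365 with 1 library left out, 333, 1 and 31 did so. On water, the 9 genes held 0 calls, 1 with all 14 libraries in 1 model, with DESeq2 or with the name letter as a block, 2 with 13 libraries, and 0 to 1 with 1 library left out (1 without Smad4 KO water replicate 4). The cause was not tested. The other comparisons stayed at 0 under each alternative run.

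The sign changes were of main values of at most 0.25 in size, but some of the changed values were larger, above all for Scnn1g. On water, Scnn1a (0.04) was -0.0585 in the 13 libraries and -0.21 without WT water replicates 3 and 4 (-0.11 to 0.23 with 1 library left out), Hsd11b2 (0.09) was -0.0365 and -0.26 (-0.0582 to 0.33), Nr3c2 (0.17) was -0.0295 without those replicates (-0.00696 to 0.37), and Scnn1b (-0.03) was 0.0107 with the replicate block, 0.043 in the 13 libraries and 0.11 without those replicates (-0.15 to 0.20). Scnn1g (-0.11) was 0.42 with the replicate block, 0.90 with the name letter and 0.18 with the Hox covariate (-0.62 to 1.06). After DSS, Sgk1 ranged from -0.46 to 0.20 and Atp12a from -0.0171 to 0.51 with 1 library left out. For DSS in WT, Scnn1a was -0.0363 without WT water replicates 3 and 4, Hsd11b2 0.0322 with the Hox covariate (-0.26 to 0.12), Slc12a2 (-0.03) 0.0405 without those replicates (-0.13 to 0.10), and Scnn1g ranged from -0.77 to 0.90. For DSS in Smad4 KO, Scnn1a (0.00) was 0.0043 with DESeq2, 0.0041 with median ratio factors, 0.0024 without mitochondrial genes, 0.00305 without a filter, 0.0064 with the replicate block, 0.0075 with the Hox covariate and 0.10 in the 13 libraries (-0.18 to 0.14). Atp12a was 8.6e-05 without mitochondrial genes, 0.0047 without a filter, 0.21 with the replicate block and 0.0371 with the name letter (-0.16 to 0.19), Nr3c1 -0.0403 and -0.27 with these blocks (-0.057 to 0.18), and Scnn1b 0.0441 and Nr3c2 -0.20 with the name letter. Sgk1 in the difference of the responses ranged from -0.18 to 0.58.

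Counts over all genes moved more. On water (1) they were 1276 with 14 libraries, 796 with DESeq2, 55 without a filter, 460 with the replicate block, 2030 with the name letter, 5 with the Hox covariate, 1154 with 13 libraries, 2 without WT water replicates 3 and 4, 13 when the library labelled Smad4 KO water replicate 1 was left out and 1816 without Smad4 KO water replicate 4. After DSS (114) they were 2, 492, 345, 52, 2, 3 and 8 under the first 7 of these, and 26 to 97 with 1 library left out. For DSS in WT (0) they were 1789 with DESeq2, 457 without a filter, 27 with the replicate block, 1 with the name letter or without WT water replicates 3 and 4, 455 without WT water replicate 2 and 25 without replicate 4. For DSS in Smad4 KO (1) they were 10, 70, 19 and 13 under the first 4, 8 with the Hox covariate, 5 with 13 libraries and up to 3 with 1 left out, and for the difference (1) 8 with DESeq2, 2 without a filter, 3 with the Hox covariate and up to 6. Libraries of the same number correlated at -0.11 to 0.42 and were not treated as pairs, and the replicate block called 0 of the 9 genes in each comparison. For Slc12a2 it ended the call after DSS, where the log2 fold change was 0.77, and made one on water (1.03, edgeR adjusted p = 0.045). Low counts, at most 50, and the spread between libraries limit Scnn1g.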
